A study of Xenopus laevis with 46 samples.

Results

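The vegetal pole (VP) region of Xenopus laevis blastulae was compared between 9 and 5 hours post fertilisation (hpf). The comparison used 6 of the 46 libraries of the series, chosen by region, time and experiment from their labels, with 3 libraries at each time. Wild-type embryos were kept at 22 °C and were injected as 1-cell embryos with 5-ethynyl uridine (EU, 10 nl at 50 mM), which came to roughly 0.5 mM inside the embryo. Cells build this analog into RNA during transcription, so that labelled RNA can be tied to biotin and captured on beads before sequencing. Both groups therefore carried the same injection and differed in age and in the time that EU had been present. Age and labelling time cannot be told apart in this comparison. The animal pole (AP) region of the same series was collected in the same way, with 3 libraries at each time, and is used only as a reference. These libraries form experiment 1, which drew on 3 clutches. Experiment 2 drew on 1 further clutch between 6 and 9 hpf, and its libraries came in technical pairs. The labels give no number of embryos per library.

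The early Xenopus embryo runs on RNA stored in the egg until its own genome is switched on at the midblastula transition. VegT, a T-box factor whose RNA is stored in the vegetal cortex, starts a cascade in vegetal cells that makes Nodal ligands and then the Mix, Bix, Sox17 and Gata factors of the endoderm. Maternal Wnt signalling on the dorsal side adds Siamois, Nodal3 and the genes of the organizer. RNA that was complete before injection should carry no EU. What share of the values of stored RNAs came from unlabelled RNA held through the capture was not tested. In these bulk samples, fewer cells of a type and less RNA per cell cannot be told apart.

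Values are normalized read counts, rounded to whole numbers by the depositors, and changes are differences in log2(value + 1). Gene names ending in .L and .S are the copies on the long and short subgenomes, and reads of near-identical copies may have been divided between them. The summed values lay between 2175407 and 2622817 in the 6 libraries. The number of genes above 0 ranged more widely, from 7707 to 17708 at 5 hpf and from 9245 to 14824 at 9 hpf. In VP 5 hpf replicate 3, 96.3% of low values lay on steps of 1.67, where 60% of whole numbers would, and its sum over that step is 1360790 reads. The other 5 libraries showed no clear step, so their depth in reads is unknown. In VP 5 hpf replicate 2 a single gene model, Xelaev18003734m, held 17.7% of the sum. Pearson correlations of log2 values between libraries of the same time ran from 0.483 to 0.724, computed across genes, which are not independent replicates. Between libraries of different times they ran from 0.396 to 0.509, so the 2 ranges overlapped. An 8 hpf VP library, replicate 2, stood apart with 4137 genes above 0.

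The region was checked against markers. Summed values of 16 vegetal marker genes were 12601 to 32658 in VP at 9 hpf and 1037 to 3446 in AP at 9 hpf. The 11 marginal (mesoderm) markers summed to between 0 and 17 in VP at 5 hpf and to between 2273 and 3329 at 9 hpf, with fgf4.L, fgf4.S, myf5.L, myf5.S and tbx6.S at 0. The 16 animal markers summed to between 340 and 870 in VP at 5 hpf and to between 3209 and 4719 at 9 hpf, with both copies of cdh1, dlx3 and krt70 at 0 in VP. In AP at 9 hpf the animal markers summed to between 5424 and 20863. The part of neighbouring animal or marginal cells in the VP changes was not tested.

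Of 19896 genes tested, 243 were higher at 9 hpf (1.22%) and 6 were lower (0.0302%) at an adjusted p under 0.05 (limma, Benjamini-Hochberg). The 10 largest fitted changes belonged to bix1.2.L, bix1.3.L, bix1.3.S, mix1.L, mix1.S and mixer.L of the Mix and Bix homeobox group, ventx2.2.S, snai1.S, eomes.L and LOC100492708. Of the 243, 175 were listed at 0 in all 3 VP libraries at 5 hpf, 51 were above 0 in 1 library, 13 in 2 and 4 in all 3. Their mean at 9 hpf ran from 45.3 to 28343, with a median of 569.3. The groups did not overlap for 234 of them, against 5.44% of all genes tested whose 9 hpf values all lay above those at 5 hpf. The 243 were called on these same libraries, so the choice itself favours such separation, and the count carries no test. An unadjusted p under 0.05 was reached by 1762 genes, 1062 of them higher and 700 lower. The count depended strongly on which libraries were used. Leaving out replicate 1 of all times and both regions of experiment 1 left 4 genes called higher of 17347 tested. Leaving out replicate 3 in the same way left 4 of 18852, and leaving out replicate 2 left 134 of 18461. Without VP 5 hpf replicate 1, 2 or 3 alone, 70, 111 and 76 genes were called higher, and without VP 9 hpf replicate 1, 121 were. A fit of the 6 libraries alone called 172 of 12111 genes higher (1.42%), among them 112 of the 243.

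The 243 genes went from a trace to a sizeable share of the captured RNA. They held 0.0810%, 0.0917% and 0.0190% of the summed values in the 3 libraries at 5 hpf and 12.9%, 8.59% and 10.2% at 9 hpf. At 7 hpf they held 0.682%, 0.730% and 0.441%, and at 8 hpf 6.97%, 3.06% and 1.51%. These shares describe genes chosen for being high at 9 hpf, so the end points carry no test. The other clutch gives values that the choice did not use: its libraries held 0.375% and 0.315% at 6 hpf and 2.92% and 2.96% an hour later. They held 6.04% and 5.72% at 8 hpf, then 16.5% and 15.7% in the last pair. In that clutch both 9 hpf libraries lay above both 6 hpf libraries for 230 of the 243 genes (94.7%), against 22.4% of all genes tested.

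**Figure D1:**
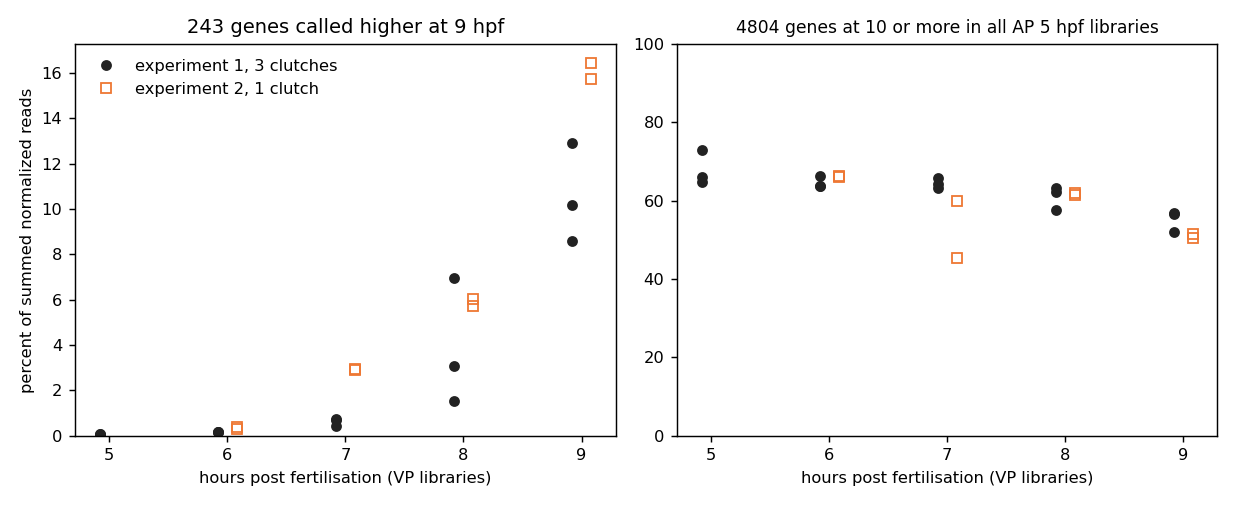
Percent of summed normalized reads (vertical axes) in each VP library by hours post fertilisation, for the 243 genes called higher at 9 hpf (left) and for the 4804 genes at 10 or more in all AP 5 hpf libraries (right). Circles are experiment 1 and squares experiment 2; the left share reaches 8.59% to 12.9% at 9 hpf in experiment 1, and the right share is 64.6% to 72.9% at 5 hpf and 52.0% to 57.0% at 9 hpf in that experiment.

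No gene was called higher at 6, 7 or 8 hpf against 5 hpf in the same limma model. It called 2 genes (0.0101%), 1 gene (0.00503%) and 1 gene at those times, all lower, while 981, 484 and 1265 genes reached an unadjusted p under 0.05.

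The Mix and Bix homeobox genes, paired-type factors induced by VegT and Nodal signals, gave the most uniform group. Of 10 tested copies, 9 were called higher and all 10 had groups that did not overlap. Over all genes tested those shares were 1.22% and 5.44%. The median log2 change of the 10 copies was 11.31, beside -0.24 over all genes tested. The value of mix1.L was 0, 1 and 0 at 5 hpf, against 6200, 3143 and 3800 by 9 hpf (log2 change 11.70 ± 2.38 SE, n = 3 per group, limma adjusted p = 0.00176). Its 9 hpf libraries stood far above every 5 hpf library. At 7 hpf mix1.L was already at 112, 239 and 133. The value of mixer.L, whose product directs endoderm formation, was 0, 6 and 0 at 5 hpf and 8019, 2938 and 4144 at 9 hpf (11.23 ± 2.40, limma adjusted p = 0.00287). It was at 0, 12 and 65 at 7 hpf. Bix1.2.L was listed at 0 in all 5 hpf libraries, stood at 136, 135 and 127 at 7 hpf and reached 5407, 2096 and 5415 at 9 hpf (limma adjusted p = 0.00176). The copy that was not called, bix1.1.S, went from 0, 32 and 0 to 978, 427 and 1503 (limma adjusted p = 0.0535). In AP at 9 hpf these genes ran from 0 to 693. The highest, bix1.1.L, was at 193, 693 and 140 there and was called higher in AP too (limma adjusted p = 0.0414), and mixer.S was at 1, 0 and 0 beside 4257, 1167 and 2562 in VP.

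Endoderm transcription factors came next, with 11 of 14 tested copies called higher and 10 with groups that did not overlap. Over all genes tested those shares were 1.22% and 5.44%. The median log2 change of the 14 copies was 8.03, and the fit of the 6 libraries called 6 of them higher. Sox17 encodes an HMG-box factor at the centre of the endoderm programme. The value of sox17a.L was 0, 10 and 0 at 5 hpf and 2208, 1159 and 2080 at 9 hpf (9.62 ± 2.35, limma adjusted p = 0.0102). Its neighbour sox17b.1.L went from 0, 15 and 0 to 2565, 1221 and 2773 (9.67 ± 2.31, limma adjusted p = 0.00837). The groups of both genes were far apart. Foxa4.L, a forkhead gene, was listed at 0 at 5 and 7 hpf in all libraries and was at 2880, 1667 and 2115 at 9 hpf (limma adjusted p = 0.00149). At 8 hpf foxa4.L was at 410, 0 and 135.

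Gata factors, zinc-finger proteins of the endoderm, reached lower values. Gata4.S was listed at 0 at 5 hpf and was at 534, 109 and 202 at 9 hpf (limma adjusted p = 0.00287). Gata6.S, also listed at 0 at 5 hpf, was at 592, 111 and 376 (limma adjusted p = 0.00176). Gata5.S was at 42, 71 and 96 (limma adjusted p = 0.00338), the lowest of the 3. These 3 copies were listed at 0 in AP at 9 hpf. In the fit of the 6 libraries they were not called, with adjusted p of 0.178, 0.131 and 0.427 (limma). Gata4.L, at 187, 72 and 0 in VP at 9 hpf, was not called (limma adjusted p = 0.167) and was at 0, 49 and 0 in AP then. Gata5.L was called at 255, 0 and 126 although its groups overlapped (limma adjusted p = 0.0494). The homeobox gene hhex.L, of the anterior endoderm, went from 0 throughout to 532, 76 and 403 (limma adjusted p = 0.00195, and 0.155 in the fit of the 6 libraries). Hhex.S, at 0, 23 and 0 and then 77, 84 and 23, was not called (limma adjusted p = 0.408).

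**Figure D2:**
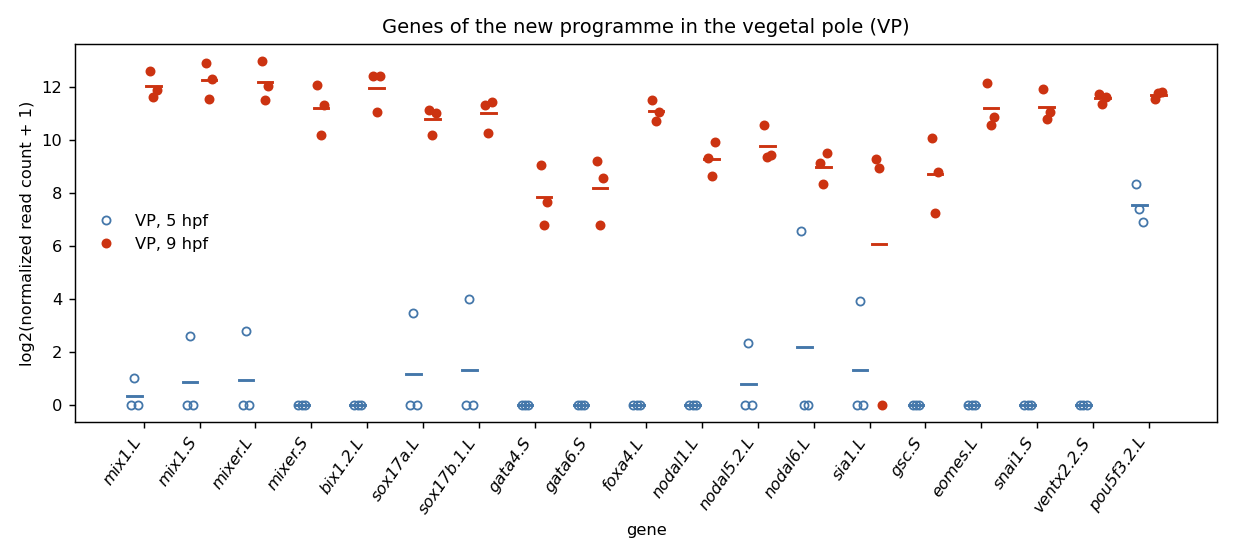
Values of 19 genes as log2(normalized read count + 1) in the 3 VP libraries at 5 hpf (open circles) and the 3 at 9 hpf (filled circles), with short lines at the group means. The genes were picked for display with their values known; all but sia1.L have 9 hpf libraries above every 5 hpf library, and pou5f3.2.L alone is above 0 in all 3 libraries at 5 hpf.

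Nodal ligands are TGF-beta family signals that induce mesendoderm. With their cofactors and inhibitors, 7 of 19 tested members were called higher, beside 1.22% of all genes tested. Groups did not overlap for 11, beside 5.44% of all genes, and the median log2 change was 5.60. In the fit of the 6 libraries 5 members were called higher. Nodal1.L was listed at 0 at 5 hpf and reached 629, 401 and 970 at 9 hpf (limma adjusted p = 0.00266). The value of nodal5.2.L was 0, 4 and 0 at 5 hpf and 80, 141 and 211 at 7 hpf, and reached 1495, 654 and 680 by 9 hpf (9.00 ± 2.17, limma adjusted p = 0.0089). In experiment 1 nodal5.2.L was above 0 in all 3 libraries at 7 hpf and nodal1.L was at 0 in all 3. The other clutch differed at that time, with nodal5.2.L at 0 and 0 and nodal1.L at 560 and 0, in libraries with 7306 and 4364 genes above 0. Nodal6.L, at 93, 0 and 0 and then 558, 318 and 734, was not called (limma adjusted p = 0.111) although its groups did not overlap. Both copies of lefty, which encodes a secreted Nodal antagonist, were called, and lefty.L went from 0, 5 and 0 to 926, 855 and 1032 (9.01 ± 2.18, limma adjusted p = 0.00955). The other called members were gdf3.S, nodal.L and xenf.L.

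Dorsal targets of maternal Wnt signalling had 1 of 5 tested members called, beside 1.22% of all genes tested, and 0 in the fit of the 6 libraries. The called member, nodal3.1.L, went from 0, 3 and 0 to 881, 130 and 422 (7.85 ± 2.19, limma adjusted p = 0.0388, and 0.131 in the fit of the 6 libraries). Sia1.L, a homeobox gene that switches on the organizer, was at 0, 14 and 0 at 5 hpf and 182, 28 and 145 at 7 hpf. By 9 hpf its values were 626, 491 and 0. Its change was not called (limma adjusted p = 0.464). In the other clutch sia1.L was at 0 and 0 at 7 hpf, then 1389 and 1849 in the 9 hpf libraries. The list named organizer and head inducers had 9 of 22 tested members called, beside 1.22% of all genes tested, with a median log2 change of 6.34. The fit of the 6 libraries called 3 of them. Gsc.S, a homeobox gene of the organizer, was listed at 0 at 5 hpf and was at 1078, 150 and 437 at 9 hpf (limma adjusted p = 0.00594). Frzb.S, which encodes a secreted Wnt antagonist, went from 0 throughout to 1017, 179 and 220 (limma adjusted p = 0.00114). Neither was called in the fit of the 6 libraries, where the adjusted p was 0.0743 for gsc.S and 0.102 for frzb.S (limma). The other called members were gsc.L, lhx1.L, not.S and both copies of admp and pnhd.

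Mesoderm regulators had 9 of 25 tested members called, beside 1.22% of all genes tested, with a median log2 change of 5.33. The fit of the 6 libraries called 6 of them. Eomes.L, a T-box gene of mesendoderm, was listed at 0 at 5 and 7 hpf and was at 4570, 1519 and 1850 at 9 hpf (limma adjusted p = 0.00287). Snai1.S, a zinc-finger repressor, went from 0 throughout to 3871, 1769 and 2106 (limma adjusted p = 0.00288). Wnt8a.S, a ventrolateral Wnt ligand, went from 0 throughout to 213, 531 and 1023 (limma adjusted p = 0.00372, and 0.0536 in the fit of the 6 libraries). Brachyury was low: tbxt.S was at 0, 17 and 0 and then 257, 202 and 110, and tbxt.L was at 88, 130 and 0 at 9 hpf. Neither tbxt copy was called, with limma adjusted p of 0.252 and 0.0705. The marginal markers given above all belong to this list, so their rise is not a separate observation. The part of marginal cells in the result was not tested.

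BMP ligands and targets had 14 of 32 tested members called, beside 1.22% of all genes tested, and a median log2 change of 5.46. The fit of the 6 libraries called 9 of them. All 10 of the called Ventx copies, homeobox repressors downstream of BMP, belonged to a pair of neighbouring runs of 5 genes, ventx3.2, ventx1.2, ventx2.2, ventx1.1 and ventx2.1, in the L and in the S subgenome. Ventx2.2.S was listed at 0 at 5 hpf, stood at 437, 144 and 241 at 7 hpf and reached 3400, 2627 and 3180 at 9 hpf (limma adjusted p = 0.000703). Its AP values at 9 hpf were 1216, 5653 and 2625, a range that holds those of VP. Pou5f3.2, an Oct4-related factor, was present before. The value of pou5f3.2.L was 324, 166 and 119 at 5 hpf and 3000, 3481 and 3612 at 9 hpf (4.17 ± 0.97, limma adjusted p = 0.00663), and that of pou5f3.2.S was 32, 26 and 0 and then 3898, 2242 and 4987 (8.52 ± 1.64, limma adjusted p = 0.00121). By contrast the maternal copy pou5f3.3.L was at 554, 503 and 239 and then 956, 381 and 1222, with overlapping groups (limma adjusted p = 0.869).

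Ectoderm genes had 3 of 28 tested members called, foxi4.2.L, foxi4.2.S and grhl3.L, and a median log2 change of 0.33. Foxi4.2.S, a forkhead gene of the animal cap, was listed at 0 at 5 hpf and was at 1590, 1166 and 921 in VP at 9 hpf (limma adjusted p = 0.00736), beside 1176, 4772 and 4813 in AP. FGF and ERK response genes had 2 of 24, dusp5.L and egr1.L. Pluripotency factors had 3 of 25, pou5f3.1.L and both copies of pou5f3.2, with a median log2 change of 1.26. Known earliest zygotic genes had 9 of 23 called and a median of 5.60, with both copies of gs17 and id3 among them, and this list shares members with those above. The U2 small nuclear RNA gene rnu2, which serves splicing, went from 0 throughout to 932, 1123 and 1458 (limma adjusted p = 0.00571). Cell division genes had 1 of 45 tested members called, cdc25b.L, a phosphatase that activates cyclin-dependent kinases, which went from 0 throughout to 443, 1033 and 1227 (limma adjusted p = 0.0119). Histone genes had 1 of 28 called, h3c8.S. Over all genes tested 1.22% were called higher, so a single call does not mark out either group. Of the 28 histone genes, 7 had groups that did not overlap upward and 0 downward, against 5.44% and 4.77% of all genes tested. The histone median log2 change was 1.14, beside -0.24 over all genes tested. Among the cell division genes 6 had groups that did not overlap upward and 6 downward, against 5.44% and 4.77% of all genes tested.

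**Figure D3:**
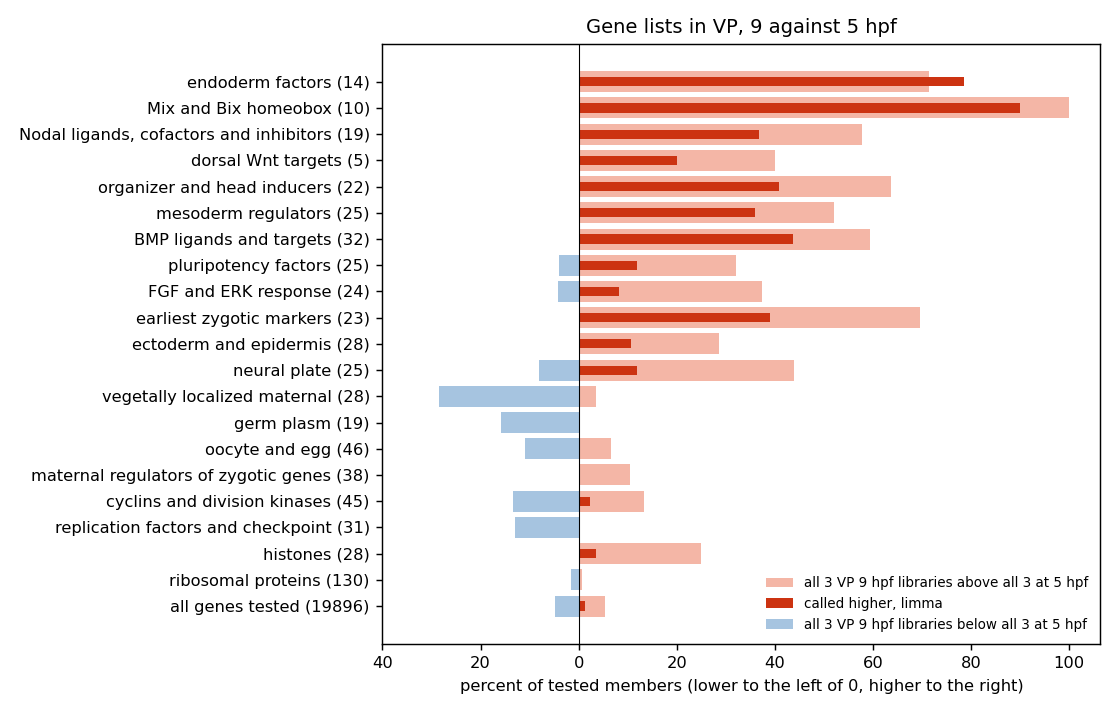
Percent of tested members of each gene list (number tested in parentheses) whose 3 VP 9 hpf libraries all lay above (light red, right) or below (light blue, left) all 3 at 5 hpf, with the percent called higher by limma as narrow dark bars. Mix and Bix genes reach 100% and vegetally localized maternal RNAs extend furthest to the left, with 8 of 28 members; over all genes tested the values are 5.44% higher and 4.77% lower.

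Genes called higher often came as copies and neighbours. Of the 243, 128 had the other subgenome copy tested, and for 74 of these, in 37 pairs, both copies were called. Of all 19896 genes tested, 9916 had the other copy tested, and 1.22% of the 19896 were called higher. The 54 copies that were not called had a median log2 change of 3.14. Groups did not overlap upward for 15 of the 54, against 5.44% of all genes tested. Of 197 called genes matched by symbol to RefSeq gene order (assembly Xenopus_laevis_v10.1, used for order only), 38 (19.3%) had a called gene next to them, against 2.18% of the 17465 tested genes matched. There were 15 runs, among them bix1.3.L, bix1.1.L, mix1.L and mixer.L in sequence, sox17a with sox17b.1 and pnhd with admp in both subgenomes, and pou5f3.2.L with pou5f3.1.L. Tandem copies can share reads, so their values are not independent.

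Whether the VP change differed from that in AP was tested directly. The interaction of region and time called 0 genes in limma, with a smallest adjusted p of 0.809, and 1042 genes reached an unadjusted p under 0.05. No change is therefore shown to be particular to VP. In AP, 342 genes were called higher at 9 hpf (1.72%), and 78 genes were called in both regions, which is 32.1% of the VP list and 22.8% of the AP list. Of the 243 VP genes, 40 were listed at 0 in all 3 AP libraries at 9 hpf. Another 129 had all AP values at 9 hpf above all AP values at 5 hpf. No share over all genes is given for the 40 or the 129. The median AP log2 change of the 243 was 5.01, beside 0.41 over all genes tested. For the Mix and Bix list the median log2 change was 11.31 in VP and 4.81 in AP. For the endoderm list it was 8.03 and 0.94, and for the ectoderm list 0.33 and 6.70. The fitted change was larger in VP than in AP for 10 of 10 Mix and Bix copies, 14 of 14 endoderm copies and 18 of 19 Nodal members, and for 3 of 28 ectoderm members. Over all genes tested it was larger in VP for 36.2%. Sox17b.1.L, among the 14, was at 300, 1311 and 1019 in AP at 9 hpf and was called higher there (limma adjusted p = 0.0109), and its changes differed by 0.14 ± 3.27.

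**Figure D4:**
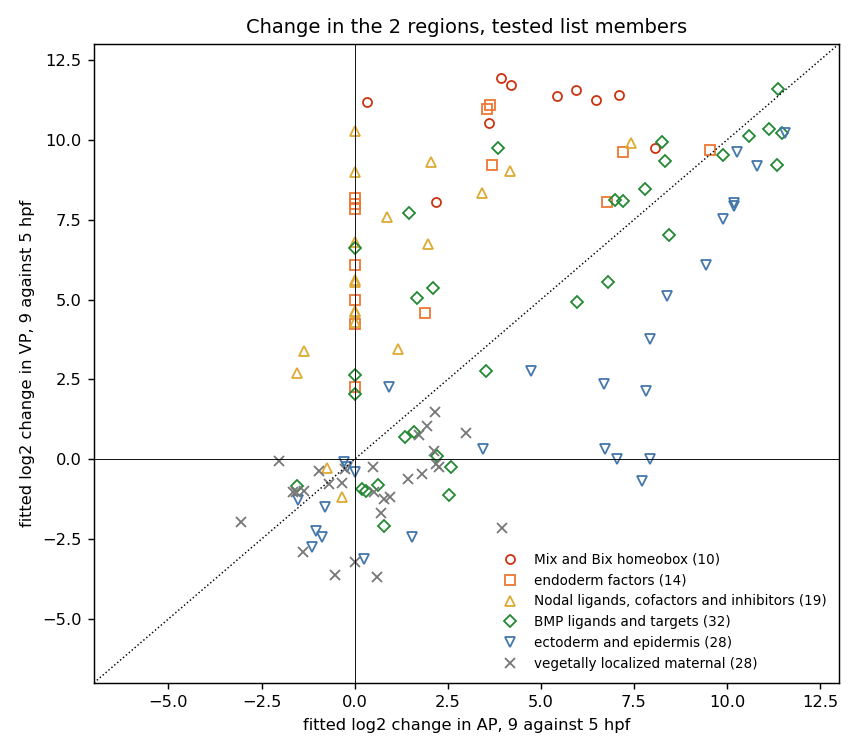
Fitted log2 change from 5 to 9 hpf in AP (horizontal axis) and VP (vertical axis) for tested members of 6 gene lists, 1 symbol per gene, with the dotted line at equal change. All Mix and Bix and endoderm copies and 18 of 19 Nodal members lie above the line, 25 of 28 ectoderm members lie below it, and no gene passed the test of the difference.

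Genes with RNA in AP at 5 hpf still held most of the summed VP values at 9 hpf. How much of their 9 hpf value came from RNA made after 5 hpf was not tested. The tier of genes at 10 or more in all 3 AP libraries at 5 hpf held 4804 genes. Those libraries lie outside the contrast but share its earlier time, and no value at 9 hpf was required. This choice may favour lower values at 9 hpf, and its part was not tested. In VP, 6 of the 4804 genes were called higher and 2 lower, against 1.22% and 0.0302% of all genes tested. The fit of the 6 libraries called 34 of them higher and 13 lower, of 172 and 15 among all genes in that fit. The median log2 change of the 4804 was -0.32 with quartiles of -1.62 and 0.54, and 48.4% lay within 1 log2 unit of no change. That share was 32.2% for tested genes listed at 0 in AP at 5 hpf and 34.9% for the other 11222 tested genes. Groups did not overlap for 229 of the 4804 that were higher (4.77%) and 401 that were lower (8.35%), against 5.44% and 4.77% of all genes tested. Among the 255 genes at 500 or more in all AP 5 hpf libraries, 80% lay within 1 log2 unit and the median was -0.15. Groups did not overlap for 26 of the 255 that were higher (10.2%) and 30 that were lower (11.8%), both above the shares over all genes. The 4804 genes held 66.0%, 72.9% and 64.6% of summed VP values at 5 hpf and 52.0%, 57.0% and 56.6% at 9 hpf, so the groups did not overlap. A share of a sum also falls where other genes rise. Of the 3870 tested genes listed at 0 in AP at 5 hpf, 207 were called higher in VP (5.35%) and 1 lower. A gene at 0 there was tested only where other libraries reached 10, so that count carries no weight.

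RNAs stored in the vegetal cortex of the egg differed among themselves, and 0 of 28 tested were called in the main limma fit in either direction. The fit of the 6 libraries called 2 of them higher and 3 lower, against 1.42% and 0.124% of all genes in that fit. The main fit takes 1 spread per gene from all 10 groups, AP included, so its SE is not the spread of VP alone. The median log2 change of the 28 was -0.76. Of them, 8 had all 9 hpf values below all 5 hpf values, and 1, wnt11b.L, had all above. Over all genes tested 4.77% lay below and 5.44% above. The 8 were otx1.L, ddx25.L, dnd1.L, gdf1.L, hwa.L, rtn3.L, spire1.S and trim36.L. Huluwa (hwa.L), a membrane protein that sets the dorsal axis, was at 2891, 3440 and 3014 at 5 hpf and 1243, 937 and 2209 at 9 hpf. Its change was -1.18 ± 1.70 (limma adjusted p = 0.927), and in the fit of the 6 libraries -1.18 ± 0.26 (adjusted p = 0.00183). In the other clutch the hwa.L values were 2591 and 2288 at 6 hpf, then 1250 and 1372 in the 9 hpf libraries. The later pair was lower, as it was for 19.7% of all genes tested.

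Trim36.L, a ubiquitin ligase needed for the microtubules of cortical rotation, was at 1330, 891 and 1451 and then 358, 143 and 370 (-2.16 ± 1.99, limma adjusted p = 0.837, and 0.00183 in the fit of the 6 libraries). Its values in the other clutch overlapped, 726 and 646 at 6 hpf, then 435 and 660. Spire1.S, an actin nucleator, was at 1909, 828 and 1576 and then 437, 401 and 241 (limma adjusted p = 0.824, and 0.00191 in the fit of the 6 libraries). The other clutch gave overlapping spire1.S values, 444 and 569 at 6 hpf, then 523 and 621 at 9 hpf. Gdf1.L (Vg1), a TGF-beta ligand that works with Nodal, was at 534, 276 and 1064 and then 161, 140 and 205 (limma adjusted p = 0.906). In the other clutch gdf1.L also overlapped, 210 and 310 at 6 hpf, then 318 and 281. Of the 8 RNAs with lower values in all 9 hpf libraries of experiment 1, hwa.L was the 1 whose later pair was lower in that clutch. The later pair was higher for ddx25.L and dnd1.L, and the other 5 overlapped. Over all genes tested the later pair was lower for 19.7% and higher for 22.4% in that clutch. For ddx25.L the values were 573 and 644 at 6 hpf, then 879 and 1117 at 9 hpf. The fit of the 6 libraries called 15 of 12111 genes lower (0.124%), hwa.L, trim36.L and spire1.S among them.

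Other vegetal RNAs had overlapping values at the 2 times in experiment 1. Grip2.L, of the germ plasm, was at 2667, 1965 and 1460 and then 2052, 986 and 3264. Pgat.L was at 1846, 1205 and 787 and then 952, 644 and 1297, and bicc1.L, an RNA-binding protein, at 1234, 936 and 1831 and then 869, 1217 and 1430. In the other clutch grip2.L was at 973 and 1202 at 6 hpf, then 1729 and 1695 at 9 hpf. There pgat.L was at 447 and 511, then 1093 and 901. Bicc1.L overlapped in that clutch, at 1057 and 1226, then 1190 and 960. The limma adjusted p of grip2.L, pgat.L and bicc1.L was 1 when rounded. For the 19 tested germ plasm genes the median log2 change was -1.02, 0 were called, and ddx25.L, dnd1.L and germes.L had all 9 hpf values below those at 5 hpf. Over all genes tested 4.77% lay below in this way. In the other clutch the 9 hpf pair lay above the 6 hpf pair for ddx25.L and dnd1.L, as for 22.4% of all genes tested. The germ plasm markers summed to between 5800 and 8632 in VP at 5 hpf and between 3382 and 6345 at 9 hpf, and to at most 271 in AP at 5 hpf.

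Neither copy of vegt was lower on average at 9 hpf. Vegt.L was at 1208, 983 and 2087 in the 5 hpf libraries, then 4554, 1722 and 1759. Vegt.S was at 1388, 750 and 1291, then 4011, 2143 and 1341. The groups of both copies overlapped, and limma adjusted p was 0.939 and 0.894. In the other clutch vegt.L was at 866 and 1202 at 6 hpf, then 3367 and 2913 at 9 hpf. There vegt.S was at 619 and 897, then 3558 and 3078. Over all genes tested 22.4% had both 9 hpf libraries above both 6 hpf libraries in that clutch. In the fit of the 6 libraries vegt.S was called higher (log2 change 1.03 ± 0.30, adjusted p = 0.0454). Wnt11b.L, a maternal Wnt ligand of the dorsal side, went from 565, 339 and 969 to 1568, 1143 and 2256 (1.48 ± 1.90, limma adjusted p = 0.904, and 0.00998 in the fit of the 6 libraries). Its values in the other clutch were 320 and 394 at 6 hpf, then 3477 and 2689.

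**Figure D5:**
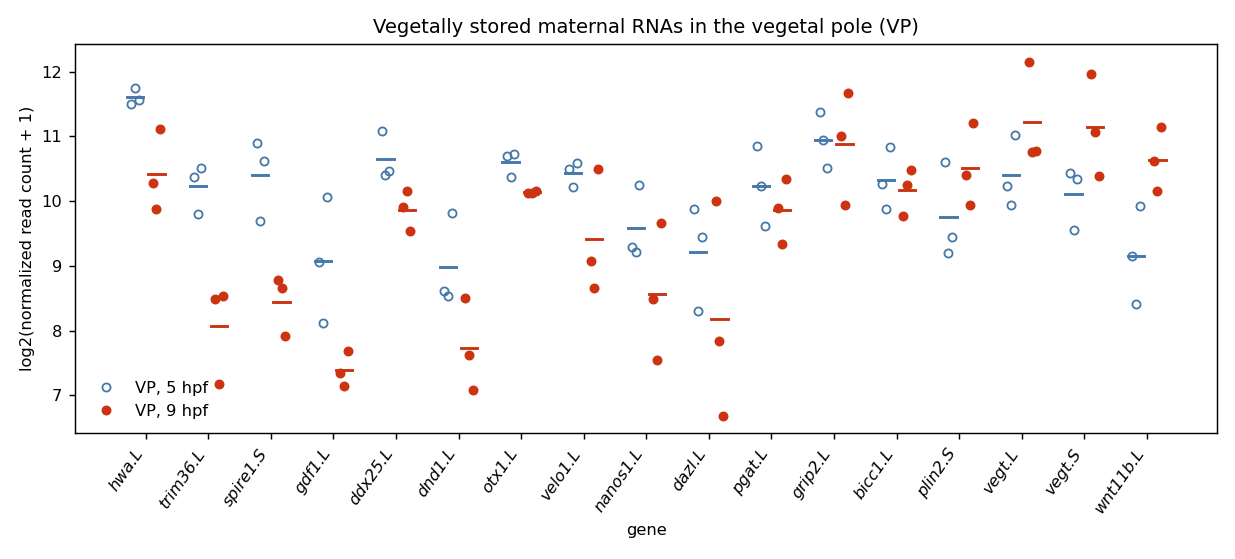
Values of 17 vegetally stored RNAs as log2(normalized read count + 1) in the 3 VP libraries at 5 hpf (open circles) and the 3 at 9 hpf (filled circles), with short lines at the group means. The genes were picked for display with their values known; hwa.L, trim36.L, spire1.S and gdf1.L lie lower at 9 hpf in all libraries, grip2.L and bicc1.L overlap, and wnt11b.L lies higher.

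Broader maternal groups held no called gene in the main fit, beside 0.0302% of all genes called lower. Of 46 tested oocyte and egg genes 0 were called, with a median log2 change of -1.0, beside -0.24 over all genes tested. Groups did not overlap for 3 of them upward and 5 downward. Btg4.S, which encodes an adaptor for removal of poly(A) tails, was at 794, 342 and 343 and then 232, 191 and 197 (limma adjusted p = 0.884). Maternal regulators of zygotic genes had 0 of 38 called and a median of 0.02, whose sign turned under 6 alternatives, to between -0.0044 and -0.13. Among these regulators 4 had groups that did not overlap upward and 0 downward. Replication factors had 0 of 31 called and a median of -0.25, with groups that did not overlap for 0 members upward and 4 downward. Ribosomal protein genes had 0 of 130 called and a median of -1.39, with 1 member whose groups did not overlap upward and 2 downward. Over all genes tested those shares were 5.44% and 4.77%.

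The 6 genes called lower were few and mostly low. Rbfox2.S, an RNA-binding splicing factor, was at 104, 121 and 461 and was then listed at 0 in all 3 libraries (limma adjusted p = 0.046). S1pr5.S, a sphingosine phosphate receptor, was at 80, 56 and 299 and then 0, 1 and 0 (limma adjusted p = 0.00303). Cradd.2.S and c14orf119.S were also listed at 0 in all 9 hpf libraries. Zfand4.L was at 1205, 609 and 657 and then 6, 0 and 332 (-5.89 ± 1.32, limma adjusted p = 0.00448), and was the 1 gene of the 6 also called in the fit of the 6 libraries. The sixth, ccdc50.L, was among the most abundant RNAs, at 162477, 125393 and 70289 and then 44342, 54281 and 53668 (-1.16 ± 0.25, limma adjusted p = 0.0129). It held 6.98%, 5.05% and 3.09% of summed values at 5 hpf and 1.69%, 2.50% and 2.25% at 9 hpf, and its adjusted p was 0.433 in the fit of the 6 libraries. In the VP libraries of the other clutch ccdc50.L was far lower, with shares from 0.0677% to 0.262%, and its 9 hpf values of 8238 and 6960 lay above those of 4330 and 3590 at 6 hpf. In that clutch 4 of the 6 genes had both 9 hpf libraries below both 6 hpf libraries, as had 19.7% of all genes tested.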

How the data were processed

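The authors used Salmon 0.12.0 for quantification and DESeq2 for normalization, per the submitters' processing notes. The deposited values, of the unit score, are normalized read counts rounded to whole numbers. No genome build or annotation is named in the labels. The table holds 50489 rows, and 1256 rows sharing a name with an earlier row were summed, leaving 49233 names. Genes at 10 or more in at least 3 of the 30 libraries of experiment 1 were tested on log2(value + 1) with limma 3.58.1 (R 4.3.3), with 10 groups, mean trend and robust settings, two-sided, and Benjamini-Hochberg adjustment over 19896 genes. Every adjusted p comes from limma, and SE is its standard error. Each gene had 1 spread over the 10 groups. Groups listed at 0 throughout lower that spread and groups with scattered values raise it, also where they lie outside the contrast. The script was tested on simulated data. Fitted changes of genes with values of 0, and list medians that include them, depend on the constant of 1. No fold is given against a group listed at 0. Replicate values are given in the order 1, 2 and 3. The members, lists and tests were chosen with earlier results of these data known. Genes were named by rule: the largest changes among called genes (at most 10 in each direction), up to 3 called members per list, and a set of known regulators. Others, such as lefty.L, bix1.1.S, spire1.S and wnt11b.L, were picked with their values in view. The labels do not say whether a replicate number marks a clutch. Residuals of equal numbers at 5 and 9 hpf correlated at 0.0296 to 0.0398 and those of unequal numbers at -0.0293 to -0.0073. All values were small, though every equal pair was positive and every unequal pair negative. The main fit did not use the numbers as pairs, and a fit with the number as a block is given below.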

Additional observations from a re-analysis of the deposited data

How the results depend on the processing

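The counts of genes higher and lower, 243 and 6, and of the interaction, 0, depended on several settings, and the cause was not tested. Higher calls numbered 449 with a constant of 10 and 94 in the fit of the 15 VP libraries. Lower calls numbered 25 with a constant of 10, 12 with no filter, 12 with L and S copies summed, 15 with the groups of the contrast alone, 33 with library weights, 29 with a covariate for genes above 0 per library and 27 without trend and robust settings. The interaction called 18 genes with no filter, 4 with the groups of the contrast alone, 1 with library weights and 1 without trend and robust settings. With the replicate number as a block, 299 genes were higher, among them all 243, and 12 were lower. Leaving out 1 replicate number or 1 VP library gave 4 to 270 higher calls, 0 to 43 lower calls and 0 to 1 interaction calls. Scaling to equal totals left 222 higher and 4 lower, and recomputed median-ratio factors 253 and 6. The median change of all genes, -0.24, was -0.52 with library weights, -0.79 without VP 5 hpf replicate 3, -0.09 with a constant of 10, and 0 with no filter, without replicate 2 and without VP 5 hpf replicate 2.

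Changes near 0 turned direction for uncalled genes. Bicc1.S was at 0.0020 with library weights, 0.11 without replicate 3 and 0.16 without VP 5 hpf replicate 3. Bicc1.L was at 0.011 without replicate 1, 0.095 without VP 5 hpf replicate 3 and 0.039 without VP 9 hpf replicate 1. Grip2.L was at 0.083 without replicate 1, 0.39 without replicate 2, 0.15 without VP 5 hpf replicate 1 and 0.39 without VP 9 hpf replicate 2. Pou5f3.3.S was at -0.17 without replicate 1 and -0.00462 without VP 9 hpf replicate 1. Over all settings that left out a replicate or library, the lowest value was -0.43 for bicc1.L, -0.62 for bicc1.S and -0.69 for grip2.L, and the highest was 0.76 for pou5f3.3.S. With an unknown depth, values of 0 cannot be given a floor.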

Other observations

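Of the 243 genes called higher at 9 hpf, 56 carry LOC names and 25 other model names, with no role given here. LOC100492708 was among the 10 largest changes: its value was 0, 1 and 0 at 5 hpf and 61, 40 and 251 at 7 hpf, and reached 4386, 2282 and 4286 by 9 hpf (limma adjusted p = 0.00176). In AP at 9 hpf it was at 1, 0 and 0. The histone gene h3c8.S, a core histone H3 gene, was present earlier than most called genes, at 618, 323 and 0 and then 1403, 1098 and 1175 (log2 change 4.38 ± 1.06, limma adjusted p = 0.00955). The library listed at 0 carries much of that fitted change, and the fit of the 6 libraries did not call it (adjusted p = 0.776).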
